A study of Mus musculus with 12 samples.

Results

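Malat1, Neat1 and the host transcripts of small nucleolar RNAs (snoRNAs) were followed across 12 mouse RNA-seq libraries, together with the imprinted long non-coding RNAs Meg3 and H19. The members are 7 genes: Malat1, Neat1, Gas5, Snhg1, Snhg12, Meg3 and H19. They are chosen by gene name, with earlier results of these data known, and a row is selected on its mean FPKM over the 6 libraries of a kind. Each was found among the 24711 named rows of the GC2 cell libraries and the 36823 named rows of the spermatocyte libraries. Each name stood on 1 row per kind of sample, except Meg3, for which no GC2 row was found and which was not analysed here in GC2 cells. The mean level therefore decided nothing between rows.

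The libraries form 4 groups of 3: GC2 cells as controls, GC2 cells with PHB knockdown, spermatocytes of control mice, and spermatocytes of mice with a Phb conditional knockout (cKO). GC2 is a cultured mouse spermatocyte line. The spermatocytes were released from seminiferous tubules with enzymes, stained with a Hoechst DNA dye and enriched by flow sorting. The sources used here do not give the means of knockdown, what the control cells carried, the Cre driver, the strain and age of the mice, or whether polyadenylated RNA was selected. The design text speaks of biological replicates but names no cultures or animals, so the p-values rest on a spread between libraries that may be technical.

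Malat1 and Neat1 are abundant nuclear long non-coding RNAs made from neighbouring genes. Malat1 collects in nuclear speckles, which store splicing factors, and Neat1 is the scaffold of paraspeckles; the main Malat1 transcript and the long Neat1 isoform end in a triple helix formed after RNase P cleavage, in place of a poly(A) tail. Gas5, Snhg1 and Snhg12 carry snoRNAs in their introns. The snoRNAs guide chemical modification of ribosomal RNA, and the spliced hosts are usually short-lived because translating ribosomes mark them for nonsense-mediated decay. H19, which holds the precursor of miR-675, and Meg3 are expressed from the maternal allele of imprinted regions.

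The rows of the host transcripts differ between the kinds of sample in whether they hold snoRNAs, so levels are not compared between GC2 cells and spermatocytes. In spermatocytes the row of Gas5 also holds the transcripts of 9 snoRNA genes, that of Snhg1 of 8 and that of Snhg12 of 4, while the GC2 rows of these hosts hold none. In the GENCODE M21 annotation every snoRNA of Gas5 and Snhg1 lies outside the exons of the spliced transcripts, and those of Snhg12 lie inside an exon of at least 1 transcript not annotated as a retained intron. One snoRNA per host is shown, with the letters TGATGA (the C box of a box C/D snoRNA) and CTGA (its D box), or ACA (the tail motif of a box H/ACA snoRNA), in capitals.
Snord47 in Gas5, chr1:161038082-161038158, plus strand: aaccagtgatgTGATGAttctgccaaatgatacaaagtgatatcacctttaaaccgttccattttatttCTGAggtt
Gm25855 in Snhg1, chr19:8723993-8724064, plus strand: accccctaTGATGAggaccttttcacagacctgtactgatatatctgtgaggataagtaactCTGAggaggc
Snora61 in Snhg12, chr4:132310240-132310369, plus strand: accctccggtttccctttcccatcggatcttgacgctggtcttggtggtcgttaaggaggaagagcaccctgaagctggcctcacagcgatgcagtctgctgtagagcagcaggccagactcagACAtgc
Both boxes were found on the gene's strand in 8 of 10 snoRNA transcripts on the Gas5 row and in 6 of 8 on the Snhg1 row. On the Snhg12 row 3 of 5 snoRNA transcripts held the ACA motif and 1 held both boxes. These sequences and positions are from GENCODE M21 on GRCm38, and no deposited value belongs to a snoRNA alone.

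The promoters of the snoRNA hosts Gas5, Snhg1 and Snhg12 are shown because these members all rose in spermatocytes, as described below. The other long non-coding hosts did not move one way there, and any link of a promoter to a change was not tested. Many genes of the translation machinery start within a run of C and T (a pyrimidine run). RefSeq (GRCm38.p6) gave a promoter for 5 of the 7 members. Each line runs from 60 bases before to 50 bases after a start. Capitals mark the letters TATA between 40 and 16 bases before the start, and the longest unbroken run of C and T from 10 bases before to 25 bases after it; TATA reads the same on both strands, and the run was sought on the gene's strand.
Gas5, second start, chr1:161035106-161035215, plus strand: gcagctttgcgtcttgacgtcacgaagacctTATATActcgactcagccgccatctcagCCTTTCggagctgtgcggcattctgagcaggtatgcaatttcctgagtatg
Snhg1, chr19:8723427-8723536, plus strand: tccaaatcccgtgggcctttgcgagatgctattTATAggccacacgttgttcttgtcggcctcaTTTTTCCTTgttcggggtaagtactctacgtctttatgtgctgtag
Snhg12, chr4:132308618-132308727, plus strand: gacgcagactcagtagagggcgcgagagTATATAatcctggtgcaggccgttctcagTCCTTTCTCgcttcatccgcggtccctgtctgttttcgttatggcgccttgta
Malat1, chr19:5802623-5802732, minus strand: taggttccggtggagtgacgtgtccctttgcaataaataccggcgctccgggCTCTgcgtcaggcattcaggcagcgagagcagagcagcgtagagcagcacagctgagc
All 3 host promoters shown hold TATA in that window, 29 bases before the second start of Gas5, 27 before that of Snhg1 and 32 before that of Snhg12. The share over 32851 mouse promoters was 5.91%. The run of C and T was 9 bases long in Snhg1 and Snhg12, 6 at the second start of Gas5 and 3 at its first. It spanned the second start of Gas5 and the start of Snhg12, from 1 and 3 bases before it. In Snhg1 it did not, and began at base 5, counting the start as base 1. A run of at least 9 stands in 8.28% of all promoters and one of at least 6 in 32.1%. TATA was not particular to the hosts: the first start of Meg3 holds it 27 bases before as well. Malat1, the first start of Gas5 and the second start of Meg3 have none in the window. These matches describe letters only.

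In GC2 cells, Malat1 was the member that moved most. Control libraries gave 7.51, 6.18 and 7.25 FPKM (fragments per unit of transcript length, relative to all mapped fragments, as deposited), and knockdown libraries gave 18.39, 62.30 and 59.37. The groups did not overlap, and knockdown replicate 1 stood well below the other 2. Malat1 (chromosome 19, 5795690 to 5802672, minus strand, GRCm38) averaged 6.98 ± 0.705 and then 46.7 ± 24.5 FPKM (SD, n = 3), and its log2 fold change was 2.40 (SE 0.49, adjusted p = 0.022, limma). All log2 fold changes are of FPKM + 1, p-values are two-sided and Benjamini-Hochberg adjusted over all rows tested in a comparison, and a row was called when its adjusted p was under 0.05. The call was lost when any of the control libraries or knockdown replicate 2 or 3 was left out (adjusted p 0.061 to 0.071), and without knockdown replicate 1 the adjusted p was 0.00072. The sum of the pachytene and diplotene spermatocyte markers was 1.08 to 1.94 FPKM in control and 2.21 to 6.57 in knockdown GC2 libraries, and that of the spermatid markers at most 0.040, so the line's labelled cell type was not seen in these markers. Smooth muscle actin Acta2, the 1 peritubular marker tested in GC2 cells, fell from 93.8 ± 4.53 to 16.9 ± 0.716 FPKM in the same knockdown libraries. The sum of the fibroblast-like markers went from 357 to 373 FPKM in control to 252 to 260 in knockdown. Of 4 tested, 3 were called lower and 1 higher. Of 5 tested Sertoli markers, 3 were called higher and 0 lower. Any part of such a change of state in the rise of Malat1 was not tested.

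In spermatocytes Malat1 stood on a row shared with Gm27694, a small annotated RNA inside the gene. Control libraries gave 10.38, 43.57 and 44.70 FPKM, and knockout libraries 179.67, 85.48 and 176.78. Control replicate 1 was low, knockout replicate 2 was low among the knockouts, and the groups did not overlap. The means were 32.9 ± 19.5 and 147 ± 53.6 FPKM, with 2.30 as the log2 fold change (SE 0.62, adjusted p = 0.014, limma). The log2 fold change was 1.64 without control replicate 1 and 2.65 without knockout replicate 2, and the row was called in every fit that left out 1 library.

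Malat1 differed between replicates more than most transcripts did. In spermatocyte controls its coefficient of variation was 59.3%, against a median of 3.95% over 8690 rows with a mean of at least 5 FPKM, and 0.725% of those rows varied more. In spermatocyte knockouts it was 36.4%, where 5.43% of rows varied more, and in GC2 knockdown 52.6%, where 5.65% of 6140 rows varied more. In GC2 controls it was 10.1%, with 37.5% of rows above it. The low value in spermatocyte control replicate 1 was not shared by the library: 0.495% of rows there lay at or under 1/2 of both other controls, against 0.368% and 0.299% in replicates 2 and 3.

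**Figure D1:**
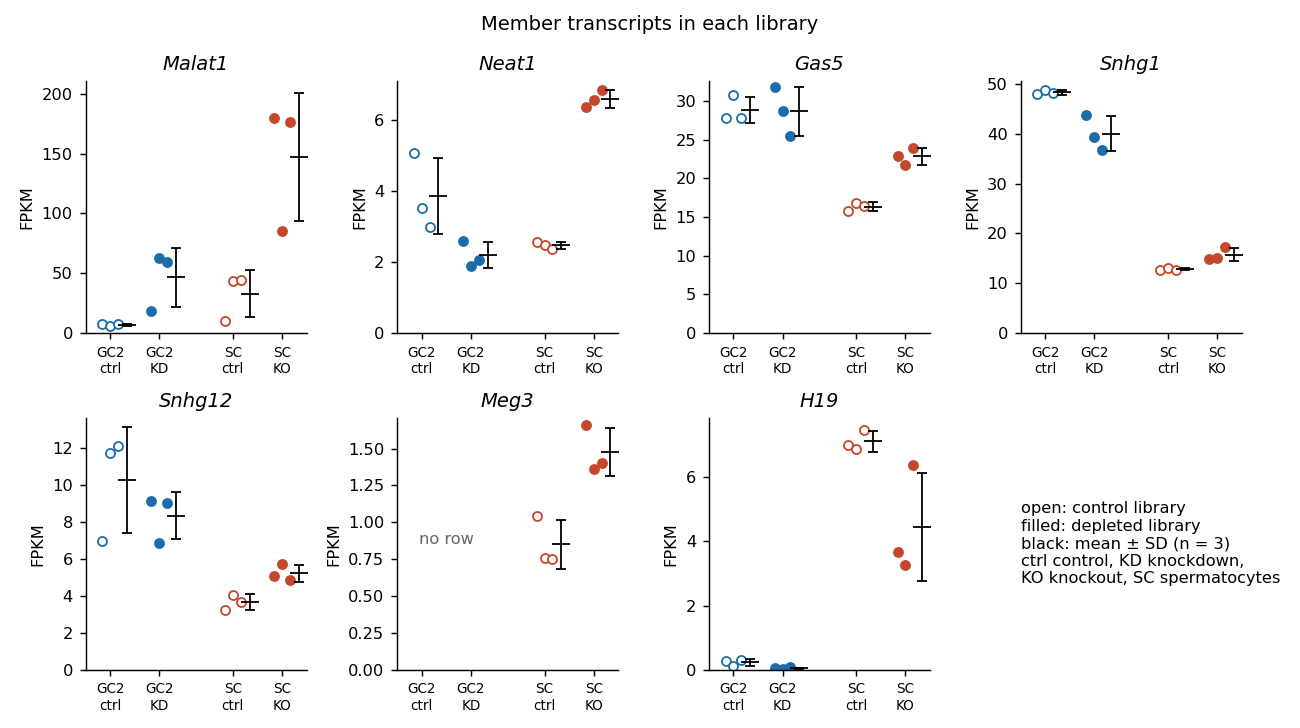
FPKM (linear axis from 0) of each member in each library of the 4 groups, with open circles for control and filled circles for depleted libraries and the mean ± SD (n = 3) in black. Malat1 has 1 knockdown library at 18.39 FPKM beside 62.30 and 59.37, and 1 spermatocyte control at 10.38 beside 43.57 and 44.70.

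Neat1 (chromosome 19, 5824708 to 5845478, minus strand) lies 22035 bases from Malat1, on the same strand, and did not share its course in GC2 cells. Its GC2 row, which also carries Gm28006, held 5.06, 3.52 and 3 FPKM in control and 2.60, 1.90 and 2.07 in knockdown libraries. All knockdown libraries lay below all controls. The log2 fold change was -0.59 (SE 0.18, adjusted p = 0.070, limma), which missed the threshold, with a 95% confidence interval of -1.05 to -0.14.

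In spermatocytes the row of Neat1, shared with Gm27533, Gm27505 and Gm28006, held 2.56, 2.48 and 2.36 FPKM in control and 6.36, 6.56 and 6.85 in knockout libraries. The 3 knockout libraries lay close together and well above the controls. Neat1 rose from 2.47 ± 0.101 to 6.59 ± 0.246 FPKM, 2.67-fold in the means and 1.13 on the log2 scale (SE 0.047, adjusted p = 2.2e-06, limma). The small RNAs named on the row are annotated inside Neat1 exons, and the short and long isoforms share 1 value, so a switch between them could not be read.

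The cell type markers of the spermatocyte libraries moved together with every spermatocyte result given here. All 8 pachytene and diplotene markers fell in knockout, their summed level going from 2070 to 2108 FPKM in controls to 44.1 to 45.5, and all 7 spermatid markers fell, from 785 to 821 to 6.33 to 8.63. Sertoli markers rose in 11 of 12 cases, from a sum of 718 to 809 to 2925 to 3130 FPKM, and all 7 tested Leydig markers rose, from 29.7 to 31.2 to 229 to 233. The 8 leptotene and zygotene markers summed to 328 to 339 FPKM in controls and 272 to 281 in knockout, ranges that do not overlap, with 3 called higher and 5 lower. The lower calls of Hormad1 (-0.19) and Stra8 (-0.10) were lost under quantile normalization and when mitochondrial rows were removed. That of Hormad1 was also lost under median centring, and Stra8 reversed sign under 2 scalings. The higher call of Dmc1 was lost without knockout replicate 2 or 3. The other calls were kept in all alternatives. All 4 tested macrophage and immune markers and all 3 erythrocyte markers rose, and 5 of 6 peritubular and endothelial markers rose while 1 fell. Of 5 fibroblast-like markers 4 fell, from a sum of 25.8 to 26.8 FPKM to 12.3 to 12.5. Of the pachytene and diplotene markers, Pou5f2 (0.1 ± 0.095 FPKM) and Tdrd6 (0.320 ± 0.118) were near 0 in the knockout libraries. Some others fell less, such as Tesk2 (log2 fold change -1.04) and Hspa2 (-3.32). Sertoli markers were also present in controls. In bulk RNA, fewer cells of a type and less RNA per cell cannot be told apart, and the part of this shift in the changes of the members was not tested. The targeted gene was lower in both kinds as deposited. Phb changed by -1.40 in GC2 cells and, much less, by -0.18 in spermatocytes (log2 fold change, adjusted p = 0.00062 and 0.0074, limma). Mitochondrially encoded rows took 12.2% to 13.6% of the FPKM total in spermatocyte controls and 17.1% to 19.5% in knockouts. The median log2 fold change of all tested rows was -0.04 in GC2 cells and 0.05 in spermatocytes, and it became 0.28 in spermatocytes after quantile normalization and 0.21 after median centring. The spermatocyte change of Phb, at -0.18, was about the size of these shifts. Whether its call held under those scalings is not given here.

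Gas5 (chromosome 1, 161034422 to 161038539, plus strand) was named for its rise in growth-arrested cells. In GC2 cells it held 27.77, 30.70 and 27.82 FPKM in control and 31.74, 28.68 and 25.47 in knockdown libraries. The groups overlapped, and the log2 fold change of -0.01 (95% confidence interval -0.25 to 0.23, adjusted p = 0.95, limma) changed sign between scalings. In spermatocytes it rose from 15.73, 16.86 and 16.40 FPKM to 22.90, 21.68 and 23.90, with no overlap and 0.46 as the log2 fold change (SE 0.046, adjusted p = 0.00014, limma).

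Snhg1 (chromosome 19, 8723475 to 8726443, plus strand) was first described as the host of Snord22 and had the highest FPKM of the members in control GC2 cells. It held 47.95, 48.78 and 48.17 FPKM there and 43.70, 39.44 and 36.73 after knockdown. The controls lay within 1 FPKM of each other and all knockdown libraries below them. The log2 fold change of -0.27 (SE 0.071) passed narrowly, at an adjusted p = 0.046 by limma, and the call was lost under quantile normalization and median centring (both at 0.078) and in every fit without 1 library except that without knockdown replicate 1. In spermatocytes Snhg1 went the other way, from 12.68, 13.06 and 12.72 FPKM to 14.83, 15.09 and 17.21. The groups did not overlap, and the log2 fold change was 0.27 (SE 0.059, adjusted p = 0.0059, limma).

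Snhg12 (chromosome 4, 132308623 to 132311024, plus strand) held 6.99, 11.76 and 12.12 FPKM in control and 9.12, 6.86 and 9.04 in knockdown GC2 libraries. Control replicate 1 lay among the knockdown values, and the log2 fold change was -0.25 (SE 0.23, adjusted p = 0.49, limma). In spermatocytes it rose from 3.21, 4.07 and 3.68 FPKM to 5.10, 5.75 and 4.84, with no overlap and 0.42 as the log2 fold change (SE 0.090, adjusted p = 0.0052, limma).

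H19 (chromosome 7, 142575529 to 142578143, minus strand) was the only member that fell in spermatocytes. Control libraries gave 7, 6.87 and 7.48 FPKM and knockout libraries 3.68, 3.27 and 6.37, on a row shared with Mir675. Knockout replicate 3 stood close to the controls. The log2 fold change was -0.62 (SE 0.21, adjusted p = 0.032, limma); it was -0.86 without that library (adjusted p = 0.00016), and the call was lost when any other library was left out and under quantile normalization (0.070) and median centring (0.082). In GC2 cells H19 was nearly silent, at 0.28, 0.11 and 0.29 FPKM in control and 0.04, 0.02 and 0.07 in knockdown libraries, and was too low to be tested. The mature miRNAs encoded in H19 are shown with their seeds (bases 2 to 8, in capitals), since the row of H19 also carries their name (RefSeq, GRCm38.p6).
mmu-miR-675-5p, chr7:142577112-142577133, minus strand: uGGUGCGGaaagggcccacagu
mmu-miR-675-3p, chr7:142577078-142577099, minus strand: cUGUAUGCccuaaccgcucagu
The seeds of the 2 arms differ, and with them the sets of messages each could pair with.

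Meg3 (chromosome 12, 109541001 to 109571726, plus strand) was low in spermatocytes. It held 1.04, 0.76 and 0.75 FPKM in control and 1.66, 1.36 and 1.40 in knockout libraries. The groups did not overlap, and the log2 fold change was 0.42 (SE 0.086, adjusted p = 0.0043, limma).

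Counted together, 5 members were tested in GC2 cells, of which 1 was called higher and 1 lower, where 24.5% of 10791 tested rows were called, 10.7% higher and 13.9% lower. The groups did not overlap for 3 of the 5, against 44.9% of all tested rows, and 1 of these was higher, against 19.6% of rows. In spermatocytes 6 of 7 tested members were called higher and 1 lower, where 79.4% of 15957 rows were called, 40.9% higher and 38.5% lower. The groups did not overlap for all 7, against 81.8% of rows, and 6 of them were higher, against 42.2% of rows. A call by itself was therefore common in spermatocytes. The median log2 fold change of the members was -0.25 in GC2 cells and 0.42 in spermatocytes.

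**Figure D2:**
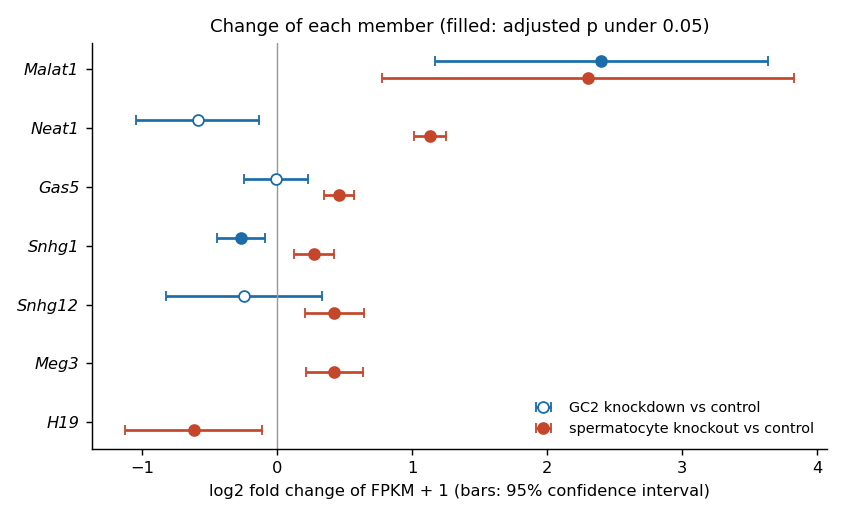
Log2 fold change of FPKM + 1 of each member with its 95% confidence interval, in GC2 knockdown (blue) and spermatocyte knockout (red), filled where the adjusted p was under 0.05. Malat1 has the largest estimates and the widest intervals in both, and Neat1 lies at -0.59 in GC2 cells and 1.13 in spermatocytes.

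The difference between the contrasts was tested in 1 fit of all 12 libraries, in which 60.9% of 9666 genes were called and 38.0% had the spermatocyte change above the GC2 change. Of the 5 members tested, 4 were called, all with the spermatocyte change above. For Neat1 the change in spermatocytes exceeded that in GC2 cells by 1.72 on the log2 scale (SE 0.19, adjusted p = 3.1e-05, limma). Snhg1 differed by 0.54 (adjusted p = 0.00078), Gas5 by 0.47 (adjusted p = 0.0039) and Snhg12 by 0.67 (adjusted p = 0.047), the last of which was lost in 11 of the 12 fits without 1 library. On simulated data this test called more unchanged genes than its nominal rate, so a call near the threshold such as that of Snhg12 is weak. For Malat1 the difference was -0.10 with a 95% confidence interval of -2.03 to 1.83, an interval that leaves room for large differences either way. The rows of the hosts hold snoRNA transcripts in spermatocytes only, and the effect of this on the differences was not tested.

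Within a kind of sample the members were put in order of FPKM as deposited. This order need not be that of the amounts of RNA. The main Malat1 and long Neat1 transcripts lack a poly(A) tail, and whether polyadenylated RNA was selected is not given. The host rows also hold snoRNA transcripts in spermatocytes. The kinds were not compared with each other, since their rows hold different transcripts. In control GC2 cells the mean level was highest for Snhg1 (48.3 FPKM), then Gas5 (28.8), Snhg12 (10.3), Malat1 (6.98), Neat1 (3.86) and H19 (0.227); Snhg12 and Malat1 were not apart, since Snhg12 replicate 1 lay at 6.99. After knockdown Malat1 (46.7) and Snhg1 (39.96) overlapped at the top. In control spermatocytes Malat1 led (32.9), with its low replicate below Gas5 (16.3) and Snhg1 (12.8), followed by H19 (7.12), Snhg12 (3.65), Neat1 (2.47) and Meg3 (0.85). In knockout spermatocytes Malat1 (147) stood far above Gas5 (22.8) and Snhg1 (15.7), and Neat1 (6.59) had passed Snhg12 (5.23) and H19 (4.44), whose highest library, at 6.37, lay above all of Snhg12 and level with the lowest Neat1 library, at 6.36.

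Protein-coding snoRNA hosts rose nearly without exception in knockout spermatocytes, whereas the long non-coding hosts other than the members did not move one way. Among 28 protein-coding hosts, mostly ribosomal proteins and translation factors, 26 were called higher in knockout spermatocytes, where 40.9% of all rows were, and 0 lower (also 0 at an unadjusted p under 0.05, limma), with a median log2 fold change of 0.51 against 0.05 for all rows. Rpl3 went from 120 ± 1.66 to 195 ± 1.45 FPKM on a shared row (log2 fold change 0.69), and Ncl, which encodes nucleolin, from 61.3 ± 1.15 to 87.1 ± 1.09 (0.50). In GC2 cells 12 of the same 28 were called lower and 0 higher (13 and 0 at an unadjusted p under 0.05, limma). Of all tested GC2 rows, 13.9% were called lower and 10.7% higher. The list had a median of -0.30 there, against -0.04 for all rows. Rpsa fell from 435 ± 4 to 329 ± 8 FPKM (log2 fold change -0.40) and Rpl7a from 331 ± 19.3 to 225 ± 16 (-0.56). That count of 12 was 5 to 12 when 1 library was left out, the lowest without knockdown replicate 2, and was 6 without the filter on low values, while the spermatocyte count stayed between 25 and 27 under every alternative. The snoRNAs of these hosts are on many of the spermatocyte rows, and sharing of reads between them was not tested.

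Of the 13 long non-coding hosts tested in GC2 cells beside the 3 members, 1 was called higher and 2 lower. Among all tested GC2 rows 10.7% were called higher and 13.9% lower. The one called higher, Snhg4, lies on a row shared with the paraspeckle protein gene Matr3, and its rise cannot be given to either gene. Zfas1, which holds Snord12 genes, fell by 1.58 on the log2 scale (adjusted p = 0.0025, limma), from 54.7 ± 6.08 to 17.8 ± 3.65 FPKM, with control libraries at 61.67, 50.53 and 51.88 and knockdown libraries at 22.01, 15.56 and 15.84. Snhg7 fell from 6.16 ± 0.817 to 1.39 ± 0.505 FPKM (-1.60). Both fell about as far as Phb, which changed by -1.40, and much further than Gas5, Snhg1 or Snhg12. In spermatocytes 5 of the 14 others were called higher and 2 lower, shares near or below the 40.9% and 38.5% of all rows. Snhg18 rose from 3.46 ± 0.081 to 10.2 ± 0.365 FPKM (1.32) and Snhg8 from 18.7 ± 1.29 to 39.6 ± 0.214 (1.05), while the row that Snhg3 shares with other genes fell from 23.1 ± 1.34 to 8.64 ± 0.415 (-1.32). Meg3 is on this list as well and was tested in spermatocytes only. With Gas5, Snhg1, Snhg12 and Meg3 included, 9 of 18 were called higher as deposited, 14 after quantile normalization and 13 after median centring.

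**Figure D3:**
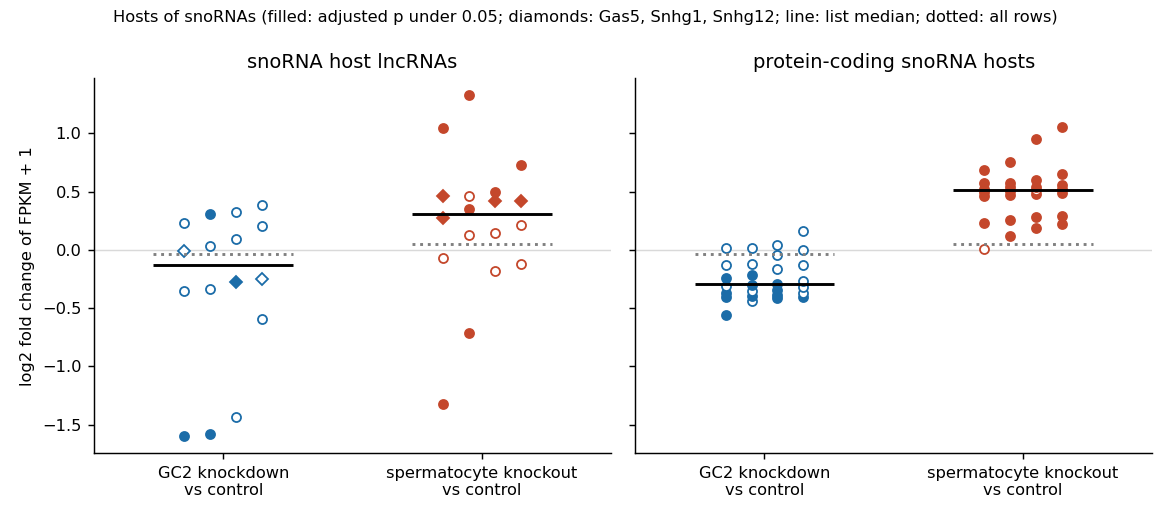
Log2 fold change of FPKM + 1 of each tested long non-coding host (left) and protein-coding host (right) of snoRNAs in both contrasts, filled where the adjusted p was under 0.05. Diamonds mark Gas5, Snhg1 and Snhg12 and, in spermatocytes, also Meg3, which is on the list. A solid line lies at the list's median and a dotted line at the median of all rows. The protein-coding hosts lie at a median of -0.30 in GC2 cells and 0.51 in spermatocytes, and the long non-coding hosts spread more widely.

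The proteins that work with these RNAs did not move as one, and since 79.4% of all spermatocyte rows were called (40.9% higher, 38.5% lower) and 24.5% of GC2 rows (10.7% higher, 13.9% lower), nothing particular to a list is read from its count. Of 17 paraspeckle proteins, the partners of Neat1, 5 rose and 7 fell in knockout spermatocytes: Nono, a core paraspeckle protein, rose from 26.5 ± 0.567 to 59.4 ± 0.907 FPKM (1.14) and Cpsf6 from 6.42 ± 0.411 to 10.6 ± 0.479 (0.64), while Dazap1 fell from 37.7 ± 1.07 to 21.5 ± 0.689 on a shared row (-0.79). After quantile normalization 5 rose and 3 fell in spermatocytes, and after median centring 6 rose and 2 fell. In GC2 cells 1 rose, on the row that Matr3 shares with Snhg4, and 2 fell, among them Taf15 at -0.46. Of 26 proteins of nuclear speckles, where Malat1 collects, 5 rose and 2 fell in GC2 cells and 15 rose and 2 fell in spermatocytes. The speckle scaffold Srrm2 rose from 41.3 ± 1.11 to 66.4 ± 0.925 FPKM in GC2 cells (0.67, on a shared row), and the splicing-factor kinase Clk1 rose from 13.04 ± 0.225 to 30.6 ± 0.163 in spermatocytes (1.17) but fell from 8.65 ± 0.741 to 6.30 ± 0.169 in GC2 cells (-0.40), a call lost without control replicate 2 or knockdown replicate 3. The GC2 count of 5 higher was 3 without control replicate 2, control replicate 3 or knockdown replicate 3, and the count of 2 lower was 0 without control replicate 2 and 1 without control replicate 1 or any 1 knockdown library. The spermatocyte count of 15 became 21 after quantile normalization or median centring.

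Factors that act on the ends or the decay of the members were split as well. A further list held Elac2 and the subunits of RNase P, whose cleavage forms the 3' ends of Malat1 and long Neat1. Of 10 tested in GC2 cells, 3 fell and 0 rose (1 at an unadjusted p under 0.05, limma). Pop1 was among those that fell, from 16.1 ± 0.218 to 11.6 ± 0.45 FPKM (-0.45). The count of 3 was 1 without control replicate 1, control replicate 2 or any knockdown library, and 2 without control replicate 3. The count of 0 higher became 1 without knockdown replicate 3, under quantile normalization or median centring, and with a filter of 5 FPKM. In spermatocytes 5 of 11 rose and 4 fell, Elac2 from 21.97 ± 1.43 to 14.95 ± 0.27 (-0.52). Of 16 nonsense-mediated decay factors, 2 fell in GC2 cells and 0 rose (2 at an unadjusted p under 0.05, limma), with 1 falling without knockdown replicate 2 and 1 rising without control replicate 1 or knockdown replicate 1; in spermatocytes 6 rose and 8 fell, with Upf3a falling from 33.4 ± 0.358 to 9.56 ± 0.207 FPKM (-1.70) and its paralog Upf3b rising from 5.26 ± 0.015 to 14.6 ± 0.399 (1.32). Of 18 snoRNP proteins and assembly factors, 1 rose and 1 fell in GC2 cells, and 6 rose and 6 fell in spermatocytes, where 11 rose and 5 fell after quantile normalization; the 1 rise in GC2 cells was lost in every fit without 1 library. Nhp2, a subunit of box H/ACA particles, rose from 34.3 ± 1.95 to 55.7 ± 2.03 FPKM (0.69) and Pih1d1, an assembly factor, fell from 46.5 ± 0.28 to 14.1 ± 0.781 (-1.65). Among long non-coding RNAs other than the members, 2 of 11 were called higher in GC2 cells and 0 lower, and in spermatocytes 7 of 13 rose and 1 fell. With the members the GC2 counts were 3 of 13 and 0 (2 lower at an unadjusted p under 0.05, limma), and the 3 became 0 without any 1 control library or knockdown replicate 2, and 1 without knockdown replicate 1 or 3. Firre, a nuclear RNA of the X chromosome, rose from 5.71 ± 0.748 to 16.5 ± 0.476 FPKM in spermatocytes (1.39). In GC2 cells it went from 1.55 ± 0.246 to 2.45 ± 0.355 (0.44, adjusted p = 0.047, limma), a call that was kept in 6 of 13 alternatives and, of the fits without 1 library, only in that without knockdown replicate 3.

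For the imprinted members, 10 imprinted genes of the list were tested in GC2 cells, of which 1 rose and 3 fell. In spermatocytes 29 were tested, of which 12 rose and 11 fell. Of all tested rows, 10.7% were called higher and 13.9% lower in GC2 cells, and 40.9% and 38.5% in spermatocytes. Nothing particular to imprinted genes is read from these counts. Igf2, the growth factor gene reciprocally imprinted with H19 and 72622 bases from it, fell in GC2 cells by 2.30 on the log2 scale (adjusted p = 4.7e-05, limma), from 4.50 ± 0.251 to 0.113 ± 0.032 FPKM, where H19 was at most 0.29. In spermatocytes Igf2 fell from 3.79 ± 0.353 to 2.11 ± 0.712 on a shared row (-0.65, adjusted p = 0.015, limma), beside the -0.62 of H19, and like that of H19 its call was lost under quantile normalization (adjusted p = 0.075). Fibroblast-like markers fell in the same libraries, from a sum of 25.8 to 26.8 FPKM to 12.3 to 12.5, and their part in the falls of H19, Igf2 and Dlk1 was not tested. In GC2 cells their sum went from 357 to 373 FPKM to 252 to 260, with 3 of 4 tested called lower and 1 higher. Their part in the fall of Igf2 there was not tested either. Of 10 tested proteins that bind or regulate H19 and Igf2 RNA or their imprint, 2 rose and 6 fell in spermatocytes, with the RNA-binding Igf2bp3 going from 7.92 ± 0.161 to 2.97 ± 0.114 FPKM (-1.17). In GC2 cells 2 of 8 rose, Zfp57, which protects imprints, from 8.20 ± 0.354 to 12.2 ± 1.20 FPKM (0.51), and 0 fell (0 at an unadjusted p under 0.05, limma); the count of 2 was 1 in every fit without 1 library but that without knockdown replicate 1. Dlk1, the neighbour of Meg3 expressed from the other parental allele, fell from 1.54 ± 0.307 to 0.977 ± 0.105 FPKM in spermatocytes (-0.35, adjusted p = 0.016, limma), a call lost under quantile normalization, median centring and without knockout replicate 1, and its sign reversed under 1 of the scalings.

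Protein-coding genes next to the members were read as well, by a rule added after the members' values had been seen. Slc3a2, the heavy chain of amino acid transporters, starts 105 bases from Snhg1 on the other strand, and both moved down in GC2 cells and up in spermatocytes. Its control libraries averaged 61.99 ± 3.07 FPKM and its knockdown libraries 31.4 ± 1.36 (log2 fold change -0.96, adjusted p = 0.00053, limma), and in spermatocytes it rose from 37.4 ± 1.48 to 84.5 ± 2.07 (1.15, adjusted p = 6.7e-07). On the other side of Snhg1, Wdr74 was called in neither (-0.04 and 0.01). Trnau1ap, whose product works in selenocysteine incorporation, ends 738 bases from Snhg12 on the other strand and had changes of -0.33 (adjusted p = 0.053) and 0.44 (adjusted p = 0.0086), beside -0.25 and 0.42 for Snhg12. Frmd8, 4223 bases from Neat1 on the side away from Malat1, was not called in GC2 cells (-0.13) and fell in spermatocytes (-0.87), opposite to the rise of Malat1 and Neat1 there.

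**Figure D4:**
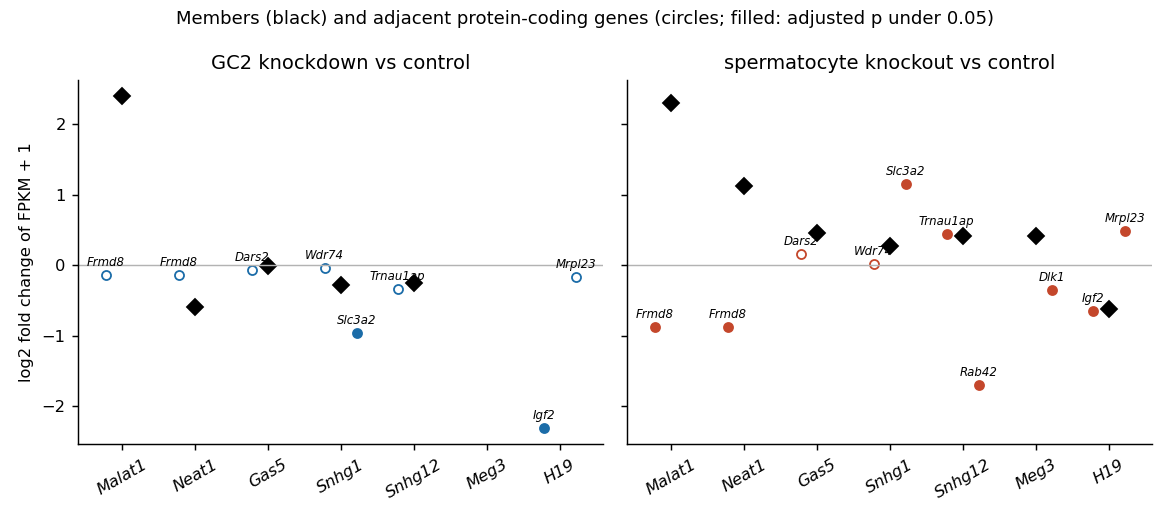
Log2 fold change of FPKM + 1 of each tested member (black diamonds) and of protein-coding genes next to it (circles, filled where the adjusted p was under 0.05) in GC2 knockdown (left) and spermatocyte knockout (right). Slc3a2 lies at -0.96 and 1.15 beside Snhg1 at -0.27 and 0.27, and Igf2 at -2.30 in GC2 cells, where H19 was too low to be tested.

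Among named rows with a mean of at least 5 FPKM, the 3 with the highest Pearson correlation with each member over the 6 libraries of a kind were listed as a description. In spermatocytes Neat1 was followed most closely by Plce1, Slc3a2 and Mir196a-1 (r = 1.00 each), rows that rose with no overlap between groups, so that the correlation holds mainly the group difference. Malat1, with its uneven replicates, was followed by Cdk19, Luc7l3 and Mcm6 in spermatocytes (r = 0.996, 0.988 and 0.987) and by Csnk1g2 and Stk19, among others, in GC2 cells (r = 1.00 and 0.997). Their changes were far smaller than that of Malat1, 0.35 for Cdk19 and 0.34 for Csnk1g2 on the log2 scale. Snhg12 in spermatocytes was followed by its neighbour Trnau1ap (r = 0.993). Between the members, Malat1 and Snhg1 ran opposite in GC2 cells (r = -0.979) and together in spermatocytes (r = 0.820), and Neat1 and Gas5 ran together in spermatocytes (r = 0.979), each over 6 libraries that share the group contrast.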

How the data were processed

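Gene expression was measured by RNA-seq in 12 libraries with a directional kit, per the labels' protocols. The values deposited by the authors are FPKM, 1 for each row and library; HISAT2 2.1.0 and DESeq are named in the submitters' processing notes, and the builds GRCm38 and mm10 without a role. The sources used here do not give the quantifier, the annotation release or the depth, and steps between low values gave no single depth. Rows hold annotated and assembled transcripts, and rows with several names cannot be split.

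FPKM was tested as log2(FPKM + 1) with limma 3.58.1 (R 4.3.3), with a trend, on named rows with at least 1 FPKM in at least 3 of 6 libraries, for each kind of sample alone. Fold changes on this scale understate low genes. Calls are at a Benjamini-Hochberg adjusted p under 0.05 over all tested rows. The difference between contrasts used 1 fit of 12 libraries. The tests were checked on simulated data, where that of the difference called too many unchanged genes. Members, lists and rules were chosen with earlier results of these data known. Named genes are the members and the called genes of each list with the lowest adjusted p, at most 6; Pou5f2, Tdrd6 and gene neighbours were added; a few genes under these rules are not reported here. Replicate numbers were not used as pairs in the main fits. The r of same-numbered libraries was -0.054 to 0.0074 in spermatocytes. In GC2 cells it was 0.061 to 0.12, against -0.074 to -0.00087 for other numbers, so pairing there is not settled. Alternatives were pseudocounts, filters, scalings, a replicate block and leaving out each library. Tables and figures were made with Python 3.11.15 and pandas 2.3.3.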

Additional observations from a re-analysis of the deposited data

Results flagged for a closer look

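4 members changed differently in the 2 kinds of sample by the test of the difference itself (limma, 1 fit of 12 libraries, spermatocyte minus GC2 log2 fold change). The difference was 1.72 for Neat1, 0.47 for Gas5, 0.54 for Snhg1 and 0.67 for Snhg12. It held for Neat1, Gas5 and Snhg1 in every fit without 1 library in which they were tested, and Snhg12 kept its call in 1 of 12 such fits.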

How the results depend on the processing

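Spermatocyte calls of Malat1, Neat1, Gas5, Snhg1, Snhg12 and Meg3 held under every alternative in which they were tested. The alternatives were pseudocounts of 0.1 and 0.5, filters of 0 and 5 FPKM, quantile normalization, median centring, removal of mitochondrial rows, a replicate block and leaving out each library; the sum of all rows with a member's name gave the same values, since each name stood on 1 row. The called fall of H19 was lost without the filter, under quantile normalization and under median centring, which left 0 members lower, and the number lower was 0 to 1 over fits without 1 library. In GC2 cells the members called were 1 without the filter, under quantile normalization and under median centring, with 0 lower in each, and 0 to 2 over fits without 1 library (higher 0 to 1, lower 0 to 1). Replicate numbers were not used as pairs in the main fits, although each GC2 library correlated best with its own number. With a replicate block 1985 GC2 rows and 12482 spermatocyte rows were called. The 1 GC2 member called (0 higher) was then Neat1, lower at adjusted p = 0.046 by limma. Malat1 (0.061) and Snhg1 (0.087) lost their GC2 calls with the block, as Clk1 and Zfp57 did. Snhg12 lost its difference between contrasts (adjusted p = 0.083, limma). The change of Gas5 in GC2 cells reversed sign to 0.035 under quantile normalization and 0.034 under median centring, and spanned -0.085 to 0.068 over fits without 1 library. The difference for Malat1 reversed to 0.018 under median centring and ran to 0.25 over fits without 1 library, its lowest value there being -0.76. With a filter of 5 FPKM the rows called higher in GC2 cells were 764, those called in spermatocytes 8240 (4344 higher, 3896 lower), and those called in the difference 3348 (2133 and 1215), with 2 members, because fewer rows were tested; without a filter the difference had 10625 calls (5667 and 4958), because more were. Rows called higher in GC2 cells were 744 to 962 over fits without 1 library. Of the calls, 43.5% were higher in GC2 cells and 53.6% after quantile normalization, and 51.6% were higher in spermatocytes and 62.0% after quantile normalization. With an own spread for each kind, an alternative chosen after seeing the data, the same 4 members differed between contrasts (Snhg12 at adjusted p = 0.0499). The depth is unknown, so the counting error of low members such as Meg3 cannot be given.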
